A study of Homo sapiens with 16 samples.

Results

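The 9 genes described here are LIN28B, its paralogue LIN28A, the let-7 targets HMGA1, HMGA2 and ARID3B, the 3 IGF2BP genes (IGF2BP1, IGF2BP2 and IGF2BP3) and DICER1. They were taken by symbol from a table of read counts for 25728 gene symbols. All 9 had at least 1 count. Of these, 7 were among the 11863 genes with enough counts to be tested, and LIN28A and HMGA2 were not. Kelly and LAN-1 are established human neuroblastoma cell lines with amplified MYCN. Each line received GSK126, an inhibitor of the histone H3K27 methyltransferase EZH2, at 2 uM, or the solvent DMSO alone. RNA was taken after 2 or 5 days, which gave 8 groups of 2 RNA-seq libraries: DMSO and GSK126 at each day in each line. The labels do not say whether the duplicates came from separate cultures, so p-values measure only the spread between these samples.

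LIN28 proteins bind the precursors of the let-7 microRNAs and keep them from maturing. Mature let-7 lowers mRNAs that carry its sites, and LIN28B itself is one of them, so that LIN28B and let-7 restrain each other. In neuroblastoma, high LIN28B is known to accompany low let-7 and high MYCN protein. The IGF2BP proteins bind and stabilise mRNAs, are abundant in the embryo, and are let-7 targets too. DICER1 makes the final cut that releases the mature microRNA. RNA-seq of genes does not measure mature let-7.

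The let-7 family is shown because every site described here pairs with it. The 9 mature names of the let-7-5p and miR-98-5p family came from 12 loci, are each 22 nt long and share 1 seed (bases 2 to 8, in capitals), as read from RefSeq on GRCh38.p14. Those with the most different tails are given 5′ to 3′.
let-7a-5p: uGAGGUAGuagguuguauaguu
let-7d-5p: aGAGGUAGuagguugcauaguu
let-7e-5p: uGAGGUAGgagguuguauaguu
let-7g-5p: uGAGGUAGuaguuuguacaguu
let-7i-5p: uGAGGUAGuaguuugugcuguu
miR-98-5p: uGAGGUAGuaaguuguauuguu

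The letters that pair with this seed, CTACCTC, were searched on the transcript strand in the 3′ UTR of the Ensembl-canonical transcript of each gene (GENCODE 44 on GRCh37). LIN28B held 4 matches in 4552 nt, HMGA2 held 4 in 3002 nt and IGF2BP1 held 4 in 6704 nt. LIN28A, HMGA1, IGF2BP2, IGF2BP3 and ARID3B held 1 each, and DICER1 held 0 in 4273 nt. Of 19752 annotated 3′ UTRs, 9.59% held at least 1 match and 0.182% held 3 or more. Among 3′ UTRs of like length the share with at least 1 match was 23.5% for that of LIN28B, 14.7% for that of HMGA2 and 32.5% for that of IGF2BP1. It was 8.83% to 16.6% for the genes with 1 match and 22.8% for DICER1. The share with 3 or more was taken over 3′ UTRs of all lengths only. A match is a description of the letters, not a measured binding site, and no match says only that these letters are not in this UTR. The genes were chosen as let-7 targets, so the matches are no independent result. The first match in each gene is given in a window of 30 nt on the transcript strand (GRCh37), with the match in capitals.
LIN28B, chr6:105526681-105526710, plus strand: tcctttacccggttgcaaagtCTACCTCat
LIN28A, chr1:26753833-26753862, plus strand: tggagtgcacagcctattgaaCTACCTCat
HMGA1, chr6:34213600-34213629, plus strand: catttttcctctgttcacaaaCTACCTCtg
HMGA2, chr12:66357072-66357101, plus strand: gggggcgccaacgttcgatttCTACCTCag
IGF2BP1, chr17:47128417-47128446, plus strand: caatgctgtgtgcgaagtaaaCTACCTCaa
IGF2BP2, chr3:185362007-185362036, minus strand: gagaaaaacacacagaagaagCTACCTCag
IGF2BP3, chr7:23351413-23351442, minus strand: taaacgtgcatttttactcaaCTACCTCag
ARID3B, chr15:74890436-74890465, plus strand: tgtttatatttcaataaacctCTACCTCtt

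The silencing complex is known to recognise a match better where an A follows it, and 2 of the 4 in LIN28B, 1 of the 4 in HMGA2 and 3 of the 4 in IGF2BP1 had one. In the windows above, those of HMGA1 and ARID3B are not followed by an A. In ARID3B the match starts at base 2345 of a UTR of 2360 nt, and in HMGA2 and LIN28B the first lies near the stop codon, at bases 24 and 47.

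**Figure D1:**
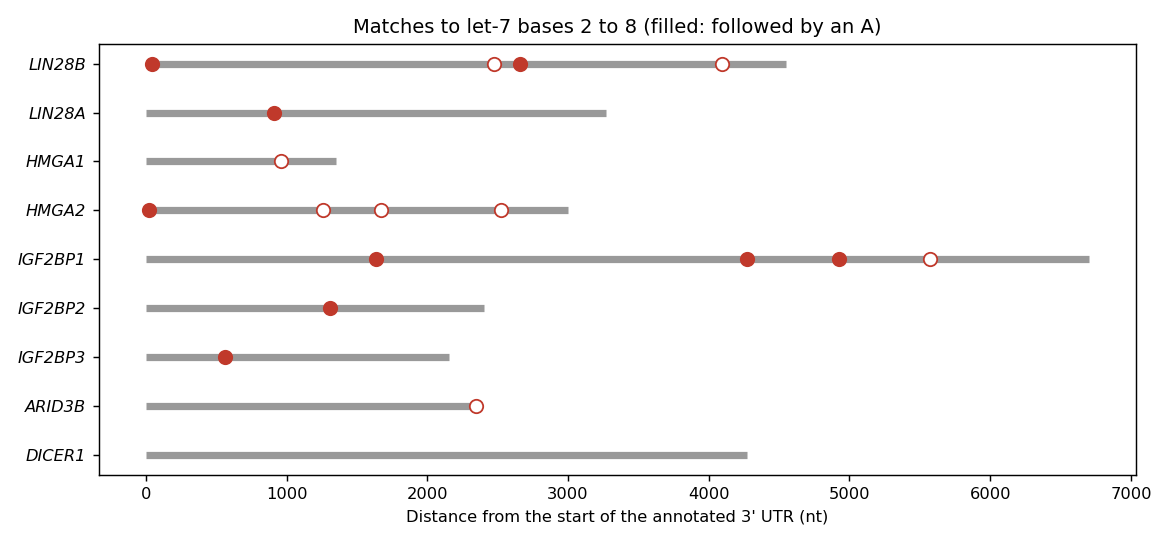
Matches to let-7 bases 2 to 8 along the annotated 3′ UTR of each gene. The x axis is the distance from the start of the UTR in nt, the grey bar is the UTR and each point is a match, filled where an A follows. LIN28B, HMGA2 and IGF2BP1 hold 4 matches each and DICER1 holds 0.

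Depth was low. Libraries held 912095 to 1666190 counts, with a median of 1394475.5, and the smallest was replicate 2 of LAN-1 with GSK126 at day 5. A gene with 0 counts in 1 library could still have had up to 3, which is 1.82 to 3.31 CPM (counts per 1e6 of the TMM-scaled total) depending on the library. These limits cover counting error only, while the 95% intervals of fold changes come from the edgeR fit and include the spread between libraries. Of 13 markers of the sympathoadrenal lineage, from which neuroblastoma arises, 13 exceeded 10 CPM on average in Kelly and 11 did in LAN-1. Epithelial, endothelial, glial and haematopoietic markers summed to at most 17.2 CPM in any library. Fibroblast markers, mostly collagen, summed to 50.3 to 216 CPM in Kelly and 20.5 to 50.7 in LAN-1. In bulk RNA, fewer cells that express a gene and less RNA per cell cannot be told apart.

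Some of these markers moved with GSK126. At day 5 in Kelly the 5 fibroblast markers summed to 93.6 to 103 CPM with DMSO and 212 to 216 with GSK126, and in LAN-1 to 27.2 to 31.9 and 35.7 to 50.7. Of the 3 that were tested, 1 was called higher in each of Kelly at day 2, Kelly at day 5 and LAN-1 at day 5. The 5 endothelial markers summed to 2.24 to 3.04 CPM with DMSO and 8.40 to 17.2 with GSK126 in Kelly at day 5. There the 1 tested was called higher, and it passed the filter on low counts only through that GSK126 group. The 13 sympathoadrenal markers summed to 10721 to 10905 CPM with DMSO and 8088 to 8276 with GSK126 in Kelly at day 5, with 7 called lower and 1 higher. In LAN-1 at day 5 they summed to 4249 to 4263 and 4292 to 4827 CPM, with 3 called higher and 0 lower. Of all tested genes 0.177% were called in Kelly at day 2, 4.9% in Kelly at day 5 and 3.66% in LAN-1 at day 5. The part of these marker shifts in the results was not tested.

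Both lines expressed the same members, except IGF2BP2. Levels of different genes are given as CPM per kb of the canonical transcript, and their comparison depends on that choice of length. All annotated exons together span 8535 bp for IGF2BP3, 22151 for DICER1 and 9631 for IGF2BP1. Their canonical transcripts span 4274, 10384 and 8796 bp. The order, overlaps and family shares below are for the canonical length only. On this scale HMGA1 led in Kelly with a median of 296 over 8 libraries (272 to 337). IGF2BP1 followed at 129 (116 to 141), then LIN28B at 48.9 (38.8 to 58.6), IGF2BP3 at 35.5 (32.6 to 42.7), DICER1 at 32.3 (28.2 to 35.2) and ARID3B at 14.9 (13.0 to 17.7). LIN28B overlapped IGF2BP3 in this order, and IGF2BP3 overlapped DICER1. The median of IGF2BP2 was 0.071 CPM per kb, and HMGA2 and LIN28A were at a median of 0.

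In LAN-1, IGF2BP1 led at 159 CPM per kb (147 to 169), overlapping HMGA1 at 135 (120 to 155). LIN28B at 24.1 (20.2 to 27.6), IGF2BP3 at 20.7 (18.8 to 27.5) and DICER1 at 18.6 (17.7 to 21.8) overlapped each other. IGF2BP2 at 12.5 (10.8 to 14.2) overlapped ARID3B at 10.4 (7.68 to 12.3). Within the IGF2BP family, IGF2BP1 made up 77.7% of the length-scaled level in Kelly and 82.0% in LAN-1. IGF2BP3 made up 22.1% and 11.0%, and IGF2BP2 0.044% and 6.78%.

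**Figure D2:**
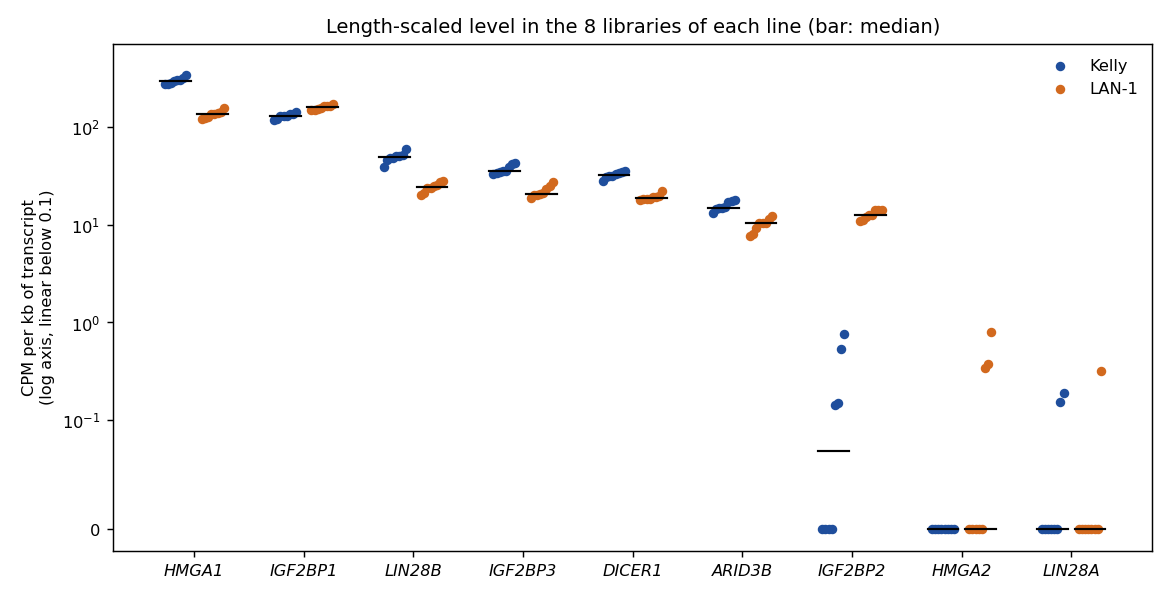
Level of each gene per kb of the canonical transcript. The y axis is CPM per kb on a log scale that becomes linear below 0.1, each point is 1 library (8 per line) and the bar is the line's median. IGF2BP2 separates the lines by far more than the other members, and HMGA2 and LIN28A lie at 0 in most libraries.

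LIN28B, the let-7 inhibitor expressed in these cells (GRCh37 6:105384491-105531207), was about 2 times as high in Kelly as in LAN-1. In the Kelly DMSO libraries it stood at 318.9 and 277.0 CPM at day 2 and at 272.8 and 259.6 CPM at day 5. The LAN-1 DMSO libraries held 114.6 and 133.8 CPM at day 2 and 150.4 and 147.9 CPM at day 5. Every Kelly library was above every LAN-1 library. Over the DMSO libraries of both days the difference was 2.06-fold (log2 fold change of LAN-1 over Kelly -1.04 ± 0.08 SE, edgeR adjusted p = 1.83e-23, n = 4 per line).

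The LIN28B estimate with GSK126 was below 0 in 3 of the 4 comparisons, and none passed the test. In Kelly the GSK126 libraries held 272.4 and 259.7 CPM at day 2 and 211.5 and 247.5 CPM at day 5. In LAN-1 they held 128.9 and 139.2 CPM at day 2 and 128.7 and 110.2 CPM at day 5. At day 5 the GSK126 libraries lay below the DMSO libraries in both lines, without overlap. The day 5 log2 fold change was -0.21 ± 0.11 in Kelly (95% interval -0.42 to 0.00067, edgeR adjusted p = 0.305). In LAN-1 it was -0.30 ± 0.13 (interval -0.57 to -0.040, adjusted p = 0.211). These intervals allow a decrease of up to 25.3% in Kelly and 32.4% in LAN-1. At day 2 the changes were -0.15 ± 0.10 in Kelly (adjusted p = 0.773) and 0.11 ± 0.13 in LAN-1 (0.952).

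LIN28A (1:26737308-26756219), the paralogue that recruits the uridylating enzyme TUT4 to let-7 precursors, was almost absent. Its 4 counts in all lay in 2 Kelly libraries, with 1 count each, and in 1 LAN-1 library, with 2. No fold is given.

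HMGA1 (6:34204650-34214008), an AT-hook protein that bends DNA and shapes chromatin, had the largest line difference among the members present in both lines. Kelly held 523.8 and 603.4 CPM in DMSO at day 2 and 580.7 and 647.4 CPM at day 5, against 268.3 and 261.5 CPM and 258.4 and 268.1 CPM in LAN-1. The difference was 2.24-fold (log2 -1.16 ± 0.07, edgeR adjusted p = 1.26e-32), without overlap between any 2 libraries of different lines. HMGA1 has processed pseudogene copies elsewhere in the genome, and how reads that fit several places were counted is not given, so its level is less certain.

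Over the 4 comparisons of GSK126 within a line and day, HMGA1 in Kelly at day 5 had the smallest adjusted p of the members other than IGF2BP2. Its libraries with GSK126 stood at 522.2 and 530.9 CPM, both below the 2 DMSO libraries, with a log2 fold change of -0.22 ± 0.09 (edgeR adjusted p = 0.146). At day 2 in Kelly they stood at 573.7 and 564.1 CPM, inside the range of DMSO. In LAN-1 they were 230.9 and 235.1 CPM at day 2, below both DMSO libraries (-0.18 ± 0.11, adjusted p = 0.824), and 241.3 and 297.5 CPM at day 5, on either side of them (0.02 ± 0.11, 0.976).

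HMGA2 (12:66218240-66360071), its paralogue and one of the best known let-7 targets, had 0 counts in all 8 Kelly libraries and all 4 LAN-1 DMSO libraries. The LAN-1 GSK126 libraries held 0 and 2 counts at day 2 and 2 and 3 counts at day 5. Those at day 5 were 1.4 and 3.3 CPM. Against a limit of 3 counts over the 2 DMSO libraries, the day 5 level was at least 1.87-fold higher, with the 5 GSK126 counts taken as exact. HMGA2 was too low for the test. With no filter on low counts, edgeR gave an unadjusted p of 0.0482 and an adjusted p of 0.441. The table also holds RPSAP52, which overlaps HMGA2 on the other strand, and with the strand setting not given their reads cannot be told apart.

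IGF2BP1 (17:47074747-47133507), the member with the most counts, was the only one besides IGF2BP2 that was higher in LAN-1. Its DMSO libraries held 1180.6 and 1242.7 CPM at day 2 and 1053.8 and 1192.1 CPM at day 5 in Kelly, and 1441.4, 1488.6, 1435.2 and 1425.2 CPM in the same order in LAN-1. The difference was 1.24-fold (log2 0.31 ± 0.06, edgeR adjusted p = 7.06e-07). With GSK126 the libraries held 1141.8 and 1119.8 CPM at day 2 and 1021.4 and 1128.2 CPM at day 5 in Kelly, and 1291.8, 1335.1, 1372.5 and 1294.8 CPM in LAN-1. In LAN-1 each GSK126 library was below both DMSO libraries of its day. The 4 log2 fold changes lay between -0.16 and -0.06 with adjusted p of 0.589 or more.

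IGF2BP2 (3:185360918-185542830) was the only member called with GSK126, and the member that separated the lines most. All 4 Kelly DMSO libraries held 0 counts, while the LAN-1 DMSO libraries held 60.8 and 47.5 CPM at day 2 and 59.9 and 46.2 CPM at day 5. Over DMSO these were 306 counts in LAN-1 against 0 in Kelly, at least 103-fold higher against a limit of 3 counts over the 4 Kelly libraries (edgeR adjusted p = 2.27e-37). IGF2BP2 passed the filter on low counts only through LAN-1, so this adjusted p is no independent support for the line difference.

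With GSK126 the Kelly libraries held 1 and 1 count of IGF2BP2 at day 2 (edgeR adjusted p = 0.764) and 4 and 3 counts at day 5. At day 5 that was 3.3 and 2.3 CPM, at least 2.75-fold above the limit of 3 counts over the 2 DMSO libraries, with the 7 counts taken as exact (edgeR adjusted p = 0.0323). Even so, the mean at day 5, 2.79 ± 0.70 CPM (SD, n = 2), was far below every LAN-1 library. The call rests on few counts. DESeq2 gave an adjusted p of 0.171, and leaving out any 1 of the 4 libraries of the comparison gave 0.0768 to 0.260. Fitted on the 8 Kelly libraries alone, IGF2BP2 did not pass the filter on low counts. In LAN-1, where IGF2BP2 was already expressed, it held 53.9 and 53.4 CPM with GSK126 at day 2 and 60.2 and 50.7 CPM at day 5, overlapping DMSO at both days (0.07 ± 0.19 at day 5, adjusted p = 0.912).

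The RefSeq promoter of IGF2BP2 is shown because this was the only member called with GSK126. RefSeq lists 2 starts for this gene, and the one printed is the richer in CG. It runs from 250 bases before to 50 after the start (GRCh38.p14 chr3:185824993-185825292, minus strand, printed 5′ to 3′ on that strand, CG in capitals).
IGF2BP2 promoter: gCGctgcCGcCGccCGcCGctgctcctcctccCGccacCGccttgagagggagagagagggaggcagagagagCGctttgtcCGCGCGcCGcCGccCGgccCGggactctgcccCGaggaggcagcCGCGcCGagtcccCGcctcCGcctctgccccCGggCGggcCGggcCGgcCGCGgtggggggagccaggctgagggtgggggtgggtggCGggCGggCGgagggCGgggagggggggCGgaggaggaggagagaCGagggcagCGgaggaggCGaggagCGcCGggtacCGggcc
It held 38 CG pairs and 80.7% G or C, and 90.1% of 35116 RefSeq promoters held fewer CG. The other IGF2BP2 promoter (chr3:185821093-185821392) held 3 CG, and 18.2% of promoters held fewer. The median promoter held 14. The promoter richest in CG held 37 for LIN28B, 37 for DICER1, 33 for HMGA1 and 17 for IGF2BP3. LIN28A, HMGA2, IGF2BP1 and ARID3B were not matched. The E-box letters CACGTG, which read the same on both strands and are known to bind MYC proteins, occurred 2 times in the promoter of IGF2BP3, 1 time in the second promoter of LIN28B (chr6:104956857-104957156, 8 CG) and 0 times in its CG-rich one. They occurred 0 times in both promoters of IGF2BP2 and in those of HMGA1 and DICER1. Of all promoters 7.26% held at least 1. These are descriptions of letters. No binding or histone mark was analysed here.

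IGF2BP3 (7:23349828-23510110), a family member studied as a marker of aggressive tumours, was higher in Kelly, with 182.4, 178.1, 148.0 and 166.6 CPM in DMSO against 86.4, 117.5, 98.9 and 87.4 CPM in LAN-1 (days 2, 2, 5 and 5). The difference was 1.73-fold (log2 -0.79 ± 0.09, edgeR adjusted p = 2.91e-13). In Kelly at day 2 GSK126 gave 143.9 and 152.5 CPM, both below DMSO (-0.28 ± 0.12, adjusted p = 0.533, unadjusted 0.0195). At day 5 it gave 139.4 and 151.2 CPM, which overlapped DMSO (-0.12 ± 0.12, adjusted p = 0.715). In LAN-1 the values with GSK126 were 106.1 and 89.7 CPM at day 2 and 86.0 and 80.4 CPM at day 5, overlapping DMSO at day 2 and below it at day 5. MALSU1 lies on the other strand and overlaps IGF2BP3.

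ARID3B (15:74833547-74890472), a DNA-binding protein known to work with ARID3A on growth genes, held 71.9, 74.8, 62.0 and 74.2 CPM in the Kelly DMSO libraries and 51.9, 44.1, 48.7 and 33.6 CPM in those of LAN-1. It was 1.58-fold higher in Kelly (log2 -0.66 ± 0.13, edgeR adjusted p = 2.16e-06). GSK126 gave 64.3, 60.6, 54.9 and 61.9 CPM in Kelly and 39.2, 32.5, 44.1 and 44.1 CPM in LAN-1. These lay below the DMSO libraries at both days in Kelly and at day 2 in LAN-1, and between them at day 5. The lowest estimate of any member was that of ARID3B in LAN-1 at day 2, -0.43 ± 0.21 (adjusted p = 0.782), and at day 5 the estimate had the other sign (0.08 ± 0.21).

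DICER1 (14:95552565-95624347) was the only member with a positive estimate in all 4 GSK126 comparisons, and none of them was called. In Kelly it held 317.1 and 292.4 CPM in DMSO and 343.5 and 326.7 CPM with GSK126 at day 2, then 327.3 and 346.5 CPM against 359.9 and 365.9 CPM at day 5. In LAN-1 it held 183.8 and 196.9 against 190.1 and 205.8 CPM at day 2, and 197.8 and 189.1 against 226.6 and 188.4 CPM at day 5. The GSK126 libraries of Kelly lay above their DMSO libraries at both days, and those of LAN-1 overlapped. The log2 fold changes were 0.06 to 0.14 (lowest edgeR adjusted p = 0.646). Kelly was 1.67-fold higher than LAN-1 in DMSO (log2 -0.74 ± 0.07, adjusted p = 1.40e-16). DICER1-AS1 overlaps DICER1 on the other strand, and with the strand setting not given their reads cannot be told apart.

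**Figure D3:**
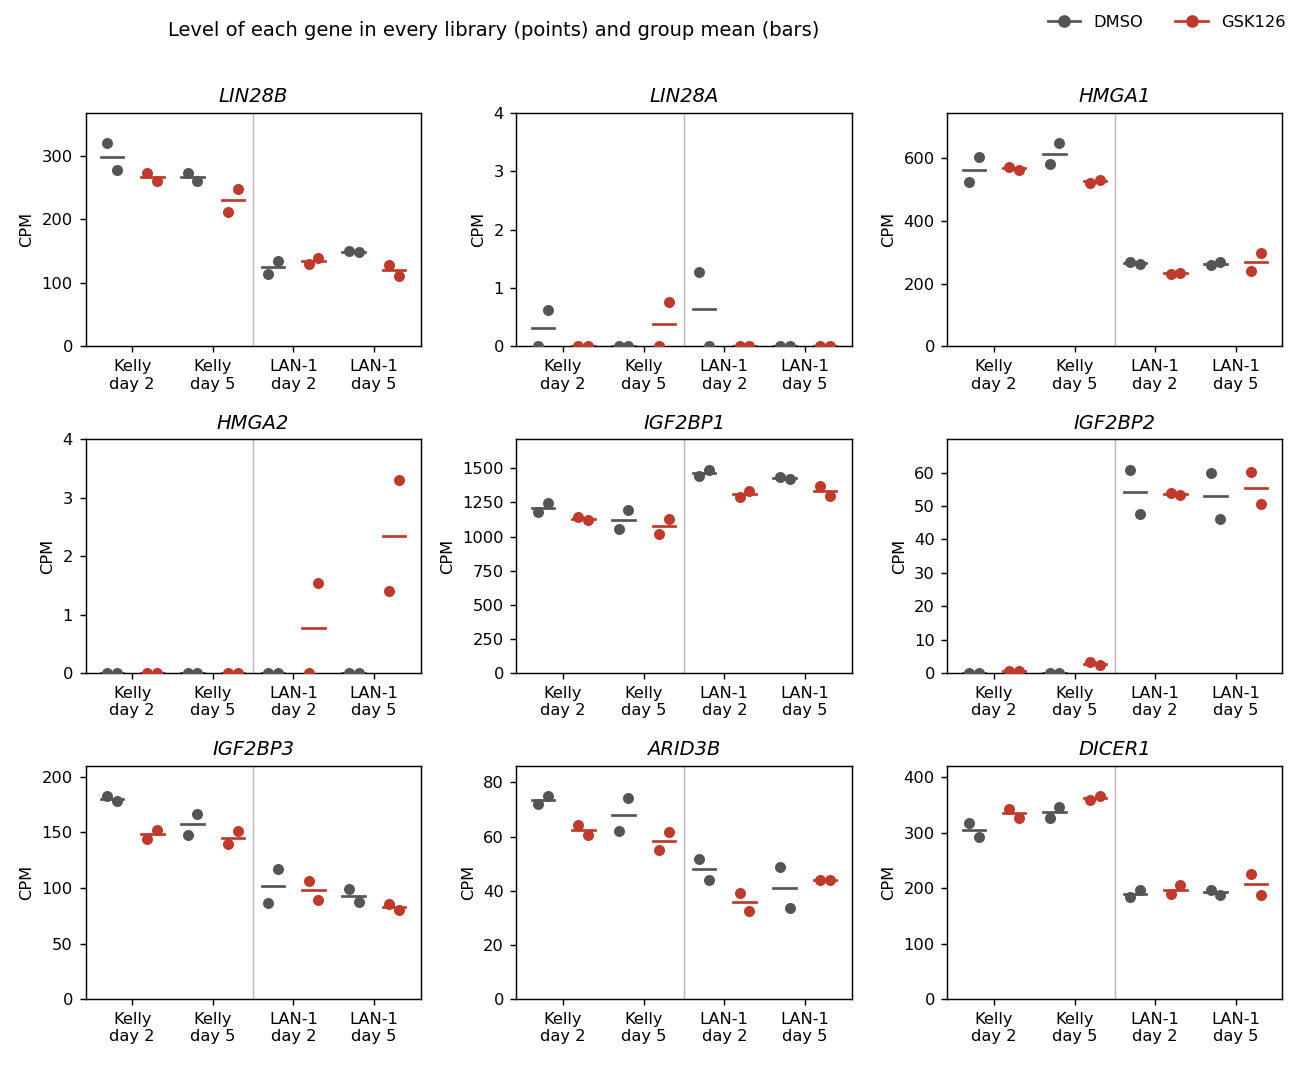
Level of each of the 9 genes in every library. The y axis is CPM from 0, each point is 1 library, bars are group means, grey is DMSO and red is GSK126. IGF2BP2 reads appear in Kelly in the GSK126 libraries, HMGA2 reads in LAN-1 in 3 of the 4 GSK126 libraries, and the 6 other tested members sit at levels set apart by line.

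Between lines in DMSO, 7 of 7 tested members were called, 5 higher in Kelly and 2 higher in LAN-1. Of all tested genes 67.7% were called, 34.2% higher in Kelly and 33.5% higher in LAN-1. In all 7 the 8 Kelly libraries did not overlap the 8 LAN-1 libraries, which held for 40.2% of tested genes. Against this background the count says little about the members as a group.

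After 2 days of GSK126, 0 of 7 members were called in Kelly (background 0.177%) and 0 of 7 in LAN-1 (0.152%). After 5 days 1 was called higher in Kelly (4.9% of genes in either direction, 3.3% higher) and 0 were called in LAN-1 (3.66%). The median log2 fold change of the 7 at day 5 was -0.12 in Kelly and 0.02 in LAN-1, where the median of all tested genes was 0.01 and 0.00. Over the 6 members other than IGF2BP2, the 24 estimates ran from -0.43 to 0.14, with 16 below 0 and 4 at an unadjusted p under 0.05. The lowest and highest interval bounds were -0.83 and 0.50. Libraries of the 2 treatments did not overlap for 6 of 7 members in Kelly at day 2, 5 at day 5, and 3 in LAN-1 at each day, where 36.7%, 46.8%, 36.0% and 44.2% of tested genes did not.

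The mean of the 4 GSK126 effects, which pools all 16 libraries, called IGF2BP2 (2.00 ± 0.64, edgeR adjusted p = 0.0400). Of the other 6 members 0 were called, where 6.47% of genes were. At days 2 and 5 the effects of IGF2BP2 were 2.97 and 4.97 in Kelly and -0.02 and 0.07 in LAN-1. Its mean thus comes from Kelly, where the fitted values depend on the prior count because DMSO held 0 counts. DESeq2 gave 0.148 for IGF2BP2 and the fit with no count filter 0.0535, and leaving out 1 library gave 0.0374 to 0.103. The pooled estimates were -0.14 ± 0.06 for LIN28B (adjusted p = 0.162) and -0.11 ± 0.04 for IGF2BP1 (0.101). They were -0.15 ± 0.07 for IGF2BP3 (0.184), -0.20 ± 0.09 for ARID3B (0.215), -0.10 ± 0.05 for HMGA1 (0.266) and 0.11 ± 0.05 for DICER1 (0.253). Without replicate 1 of LAN-1 with GSK126 at day 5, IGF2BP1 was called as well (-0.12, adjusted p = 0.0238).

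**Figure D4:**
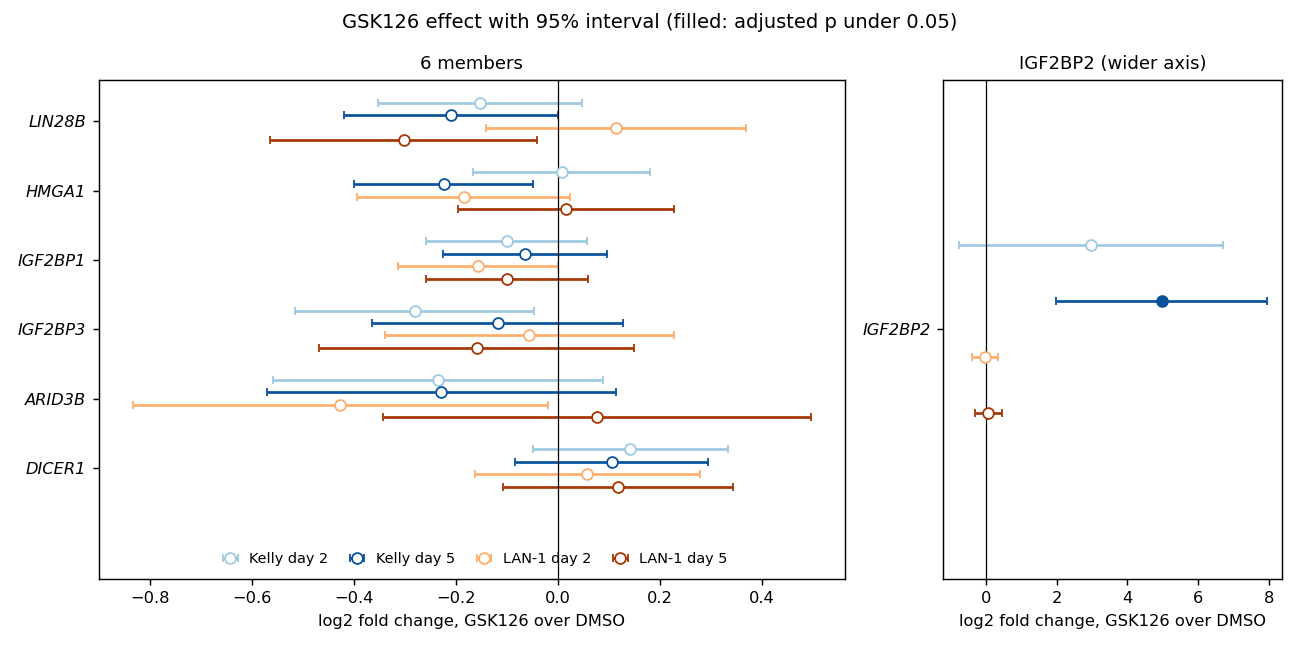
GSK126 effect on each tested member. The x axis is the log2 fold change of GSK126 over DMSO with its 95% interval, colours are the 4 comparisons of 2 libraries against 2, and filled points have an edgeR adjusted p under 0.05. IGF2BP2 in Kelly at day 5 is the 1 filled point, and its fitted value depends on the prior count because DMSO held 0 counts.

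The day 5 effect did not differ between lines for any member by the test of that difference (0 of 7 called, background 1.85%). For IGF2BP2 the LAN-1 effect minus the Kelly effect was -4.90 ± 1.53 on the fitted log2 scale (edgeR adjusted p = 0.0716). For LIN28B it was -0.09 ± 0.17. Culture time in DMSO, day 5 against day 2, called 0 of 7 in Kelly and 0 of 7 in LAN-1 (0.438% of genes in each). The largest of these estimates among members was that of LIN28B in LAN-1, 0.27 ± 0.13 (adjusted p = 0.621). The day 5 DMSO libraries of that comparison are also the controls of GSK126 at day 5.

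Other genes of the pathway were taken as lists and named by the smallest adjusted p. Among 20 further reported let-7 targets, Kelly at day 5 had 3 higher and 3 lower (background 4.9% in either direction) and LAN-1 at day 5 had 1 higher and 3 lower (3.66%). At day 2 Kelly had 1 higher (0.177%) and LAN-1 had 0 (0.152%). The list medians were -0.09 in Kelly and 0.00 in LAN-1 at day 5. Not all called targets named here hold the let-7 letters CTACCTC in the annotated 3′ UTR. MYCN, CCND2 and THBS1 held 0 matches. INSR, TGFBR1, RRM2 and NRAS held 1 each, and CDC25A and IGF1R held 2 each. The 2 targets with the largest fitted rise in Kelly at day 5 had at most 1 count in each DMSO library of that day. INSR, the insulin receptor, had 0 counts in the Kelly DMSO libraries and 26 and 20 counts with GSK126 at day 5, at least 18.1-fold higher (edgeR adjusted p = 5.51e-11). LAN-1 held INSR at 123.2 to 182.9 CPM throughout. CCND2, which encodes the G1 cyclin D2, went from 0 and 1 count to 37 and 33 counts (adjusted p = 2.29e-11) and had 1 count in all of LAN-1. It passed the filter on low counts only through the Kelly GSK126 libraries of day 5, so this adjusted p is no independent support for the rise.

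MYCN, the amplified oncogene of both lines and a reported let-7 target, fell in Kelly at day 5. Its libraries held 2399.0 and 2616.5 CPM with DMSO and 1901.0 and 1929.4 CPM with GSK126, without overlap (-0.39 ± 0.08, edgeR adjusted p = 1.81e-04). In LAN-1 it held 1695.0 and 1669.8 CPM against 1775.4 and 1942.8 CPM (0.14 ± 0.08, adjusted p = 0.362). The effects differed between lines by 0.53 ± 0.11 (adjusted p = 0.00118). LIN28B had day 5 estimates below 0 in both lines. Among the other called targets, named after their values were seen, were TGFBR1 (0.57 ± 0.16), RRM2 (-0.39 ± 0.09) and CDC25A (-0.55 ± 0.14) for Kelly at day 5. Those of LAN-1 at day 5 included IGF1R (0.37 ± 0.09), NRAS (-0.49 ± 0.11) and CDC25A (-0.55 ± 0.14), and that of Kelly at day 2 was THBS1. In Kelly at day 2, THBS1 had 1 count over the DMSO libraries and 23 over the GSK126 libraries. With DMSO alone Kelly held 16 counts at day 5. THBS1 passed the filter on low counts only through Kelly GSK126 libraries, so its call is no independent support for the rise.

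Genes of the microRNA machinery gave 1 call in the 4 GSK126 comparisons. Of 16 genes of microRNA biogenesis and silencing, 0 were called in Kelly at either day (background 0.177% at day 2 and 4.9% at day 5). In LAN-1, 0 were called at day 2 (0.152%) and 1 was higher at day 5 (3.66% in either direction). That gene was TNRC6C, a scaffold of the silencing complex, at 77.3 and 65.5 CPM with DMSO and 107.7 and 125.6 CPM with GSK126 (0.68 ± 0.15, edgeR adjusted p = 0.00231). The call was lost without DMSO replicate 2 (adjusted p = 0.101) or GSK126 replicate 2 (0.0690).

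Of 6 genes that tail, degrade or help block let-7 precursors, 0 were called with GSK126 in any comparison. The background was 0.177% and 4.9% in Kelly at days 2 and 5, and 0.152% and 3.66% in LAN-1. All 6 were called between lines, where 67.7% of all tested genes were. TRIM71 and DIS3L2 are named after their values were seen. Both passed the filter on low counts only through Kelly, so their adjusted p are no independent support for the line difference. DIS3L2, the nuclease that degrades uridylated let-7 precursors, had 0 counts in all 8 LAN-1 libraries and 25.4 to 35.9 CPM in Kelly, at least 56.8-fold higher in DMSO (edgeR adjusted p = 3.14e-27). TRIM71, a let-7 target that works alongside LIN28, had 0 counts in all 8 LAN-1 libraries and 21.3 to 45.1 CPM in Kelly, at least 74.0-fold higher (adjusted p = 1.19e-31). ZCCHC11, the table's symbol for TUT4, was 168.1 ± 25.3 CPM in Kelly and 134.4 ± 10.7 CPM in LAN-1 with DMSO at day 2 (SD, n = 2). It was lower in LAN-1 over both days (log2 -0.36 ± 0.09, adjusted p = 1.22e-04).

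The let-7 hairpins themselves gave almost no reads. Of the 12 rows named for a let-7 or miR-98 hairpin, 10 were at 0 in all 16 libraries, and the other 2 held 7 counts in all, none of them in Kelly. Of 18 symbols for hairpins, their host transcripts and host genes, 4 were tested. In LAN-1 at day 5, 1 of the 4 was called (3.66% of all tested genes were). In LAN-1 at day 2 (0.152%) and in Kelly at days 2 and 5 (0.177% and 4.9%) 0 were called. HUWE1, a ubiquitin ligase gene that hosts miR-98 and a let-7f gene, rose in LAN-1 at day 5 from 790.4 and 694.1 to 1038.1 and 1017.1 CPM (0.47 ± 0.09, edgeR adjusted p = 9.09e-05). Without DMSO replicate 2 the adjusted p was 0.0518. In Kelly it was 642.7 and 634.7 against 636.9 and 672.2 CPM (0.04 ± 0.09). A host gene's mRNA does not show the level of the microRNA.

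Of 8 transcripts reported as bound by IGF2BP proteins, 3 were called higher, 1 lower and 4 neither way in Kelly at day 5 (background 4.9%). At day 2 and in LAN-1, 0 were called (0.177% in Kelly at day 2, 0.152% and 3.66% in LAN-1 at days 2 and 5). IGF2, the growth factor mRNA that gave the family its name, fell from 484.3 and 422.5 to 179.5 and 158.9 CPM (-1.42 ± 0.11, edgeR adjusted p = 8.62e-19). In LAN-1 it was 149.0 and 135.3 against 166.5 and 213.8 CPM (0.39 ± 0.13, adjusted p = 0.0880), and the effects differed between lines (1.81 ± 0.18, adjusted p = 1.79e-13). Leaving out 1 library moved the LAN-1 estimate of IGF2 between 0.22 and 0.58. It was called when replicate 1 of LAN-1 with GSK126 at day 5 was dropped (0.58, edgeR adjusted p = 0.0122), or replicate 1 or 2 of Kelly with DMSO at day 2 (0.0337 or 0.0483). LEF1, a transcription factor of Wnt signalling, rose from 13.5 and 20.1 to 36.1 and 37.4 CPM in Kelly (1.10 ± 0.25, adjusted p = 0.00169, and 0.0925 without DMSO replicate 1).

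LIN28B is known to affect RAN and Aurora kinase A in neuroblastoma. Of 6 genes around them, RANBP1 was lower in Kelly at day 5 and the other 5 were not called (background 4.9%). In the other 3 comparisons 0 were (0.177% in Kelly at day 2, 0.152% and 3.66% in LAN-1 at days 2 and 5). RANBP1, a partner of the nuclear transport GTPase RAN, went from 323.6 and 336.2 to 256.6 and 249.0 CPM (-0.39 ± 0.10, edgeR adjusted p = 0.00822). DESeq2 gave 0.0595. With DMSO replicate 2 left out the edgeR adjusted p was 0.129, and with replicate 1 or 2 of GSK126 left out it was 0.0641 or 0.115. The list medians were -0.20 in Kelly and -0.13 in LAN-1 at day 5.

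**Figure D5:**
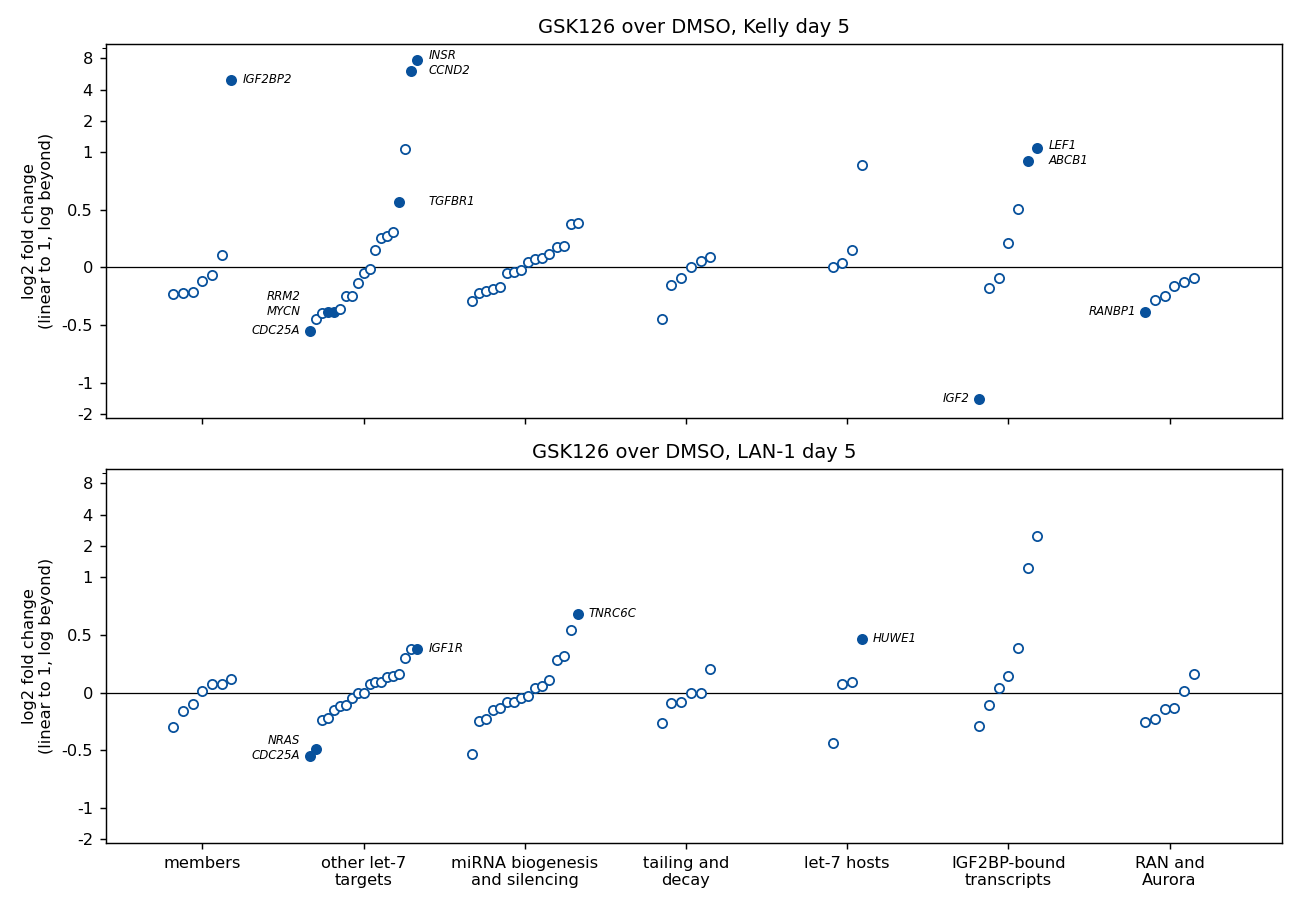
GSK126 effect at day 5 for the members and the pathway lists. The y axis is the log2 fold change (linear to 1, log beyond), each point is 1 tested gene, with a few genes left out, and filled, named points have an edgeR adjusted p under 0.05. The values of IGF2BP2, INSR and CCND2 in Kelly depend on the prior count because DMSO held at most 1 count, and most other points lie within 0.5 of 0.

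The genes whose pattern was most like that of LIN28B were ranked by the correlation of log2 CPM over the 16 libraries, after each line's mean was taken off, among 8966 genes with at least 10 CPM in both lines. FOXN2 came first with r = 0.92, followed by DNTTIP2 and RPAP3 (0.87 each) and WDHD1 and ZNF695 (0.87 each). Of the members, IGF2BP3 (0.53) and IGF2BP1 (0.51) ranked 896 and 996, ARID3B had 0.03, HMGA1 -0.14 and DICER1 -0.23. IGF2BP2, too low in Kelly to be ranked, had -0.61. Over the 8 libraries of each line alone some of these differed: in Kelly and LAN-1 respectively, r was 0.71 and -0.44 for ARID3B, -0.65 and 0.25 for DICER1, and -0.82 and -0.18 for IGF2BP2. It was 0.16 and -0.42 for HMGA1, 0.72 and 0.38 for IGF2BP3, and 0.63 and 0.37 for IGF2BP1. The libraries share depth, treatment and day, so these values describe the pattern only. FOXN2 held 49.2 ± 3.4 CPM with DMSO and 39.4 ± 4.7 CPM with GSK126 in Kelly at day 5, and 112.5 ± 9.3 and 86.1 ± 15.8 CPM in LAN-1 (SD, n = 2), and it was not called in either line.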

How the data were processed

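Read counts per gene symbol were deposited by the authors in 1 table, with 1 column for each of the 16 libraries. The tools named in the submitters' processing notes are featureCounts, TopHat2 and FastQC, and the build is hg19 (GRCh37). Versions, annotation, strand setting and the treatment of multi-mapping reads are not given in the sources used here. From the deposited counts, edgeR 4.0.16 in R 4.3.3 was run: filterByExpr at a minimum count of 10 (11863 genes), TMM scaling, a robust quasi-likelihood fit with 1 mean per group over all 16 libraries (8 residual degrees of freedom, common biological coefficient of variation 5.31%), and Benjamini-Hochberg adjustment over all tested genes, with calls at an adjusted p under 0.05. Each adjusted p comes from edgeR unless DESeq2 1.42.0 is named. The SE is the log2 fold change over the square root of F, and intervals cover 95%. Fold bounds use 3 counts over a group at 0. Alternatives were DESeq2, its size factors in edgeR, no count filter, a replicate block, each line alone, and leaving out each library. The scripts were tested on simulated data. The 9 genes, the lists and the rules were chosen with earlier results of these data known. The naming rule took every member, the 3 list genes with the smallest adjusted p where called, and the 5 genes most like LIN28B. Of the list symbols, 3 were matched through a synonym and LINC00478 had no row of that name. Results for a few list genes are not reported here.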

Additional observations from a re-analysis of the deposited data

Results flagged for a closer look

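By the edgeR test of the difference itself, the day 5 GSK126 effect differed between lines for 5 of the named pathway genes. Of the 7 tested members 0 differed, and of all tested genes 1.85% did. The pathway genes were named for small adjusted p in GSK126 comparisons that include those of day 5. Their number is therefore not independent of this test and cannot be set against that of the members. LAN-1 minus Kelly, on the log2 scale, the differences were 0.53 for MYCN (adjusted p = 0.00118), 1.81 for IGF2 (1.79e-13) and 0.43 for HUWE1 (0.0404). For LEF1 the difference was -1.21 (adjusted p = 0.00478), where LAN-1 with DMSO at day 5 held 172.0 and 174.0 CPM and Kelly held 13.5 and 20.1. For INSR it was -7.35 (adjusted p = 1.18e-08), a fitted value that depends on the prior count because Kelly with DMSO held 0 counts.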

How the results depend on the processing

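The line difference in DMSO called 7 of 7 members under every alternative run. The 1 member called in Kelly at day 5 fell to 0 with DESeq2 and with the 8 Kelly libraries alone, where IGF2BP2 was not tested, and to 0 or 1 when 1 library was left out (0 without any of the 4 libraries of that comparison). For the mean of the 4 effects the 1 call became 0 with DESeq2 and with no count filter, and 0 to 2 when 1 library was left out, with 2 only without replicate 1 of LAN-1 with GSK126 at day 5. Without that library the difference between lines had 1 member called, IGF2BP2 (adjusted p = 0.0375), and leaving out 1 library gave 0 to 1. No member was called in the other GSK126 and DMSO time comparisons under any alternative run, and LIN28B was called with GSK126 under none.

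Over all genes, DESeq2 called 2 in Kelly at day 2 (edgeR 21), 152 at day 5 (581), 2 in LAN-1 at day 2 (18), 149 at day 5 (434), 270 for the mean effect (768), 63 for the difference between lines (220), and 15 and 21 for time in DMSO in Kelly and LAN-1 (52 each). Leaving out 1 library gave, in the same order, 2 to 25, 239 to 709, 3 to 26, 139 to 735, 577 to 960, 117 to 479, 10 to 84 and 21 to 67. The cause was not tested. Same-numbered replicates did not deviate together (r of -0.057, -0.029, -0.0060 and 0.071 over 10026 genes), and the main fit did not pair them. With 2 libraries per group at low depth, this cannot show whether same-numbered samples were handled together. With the replicate block, 528 genes were called in Kelly at day 5, and IGF2BP2 stayed called (adjusted p = 0.0334).

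Signs turned only for estimates that were not called. HMGA1 in Kelly at day 2 was -0.00098 with DESeq2's size factors in edgeR, -0.0039 with DESeq2 and -0.00079 with no count filter. HMGA1 over time in LAN-1 was 0.0034 and 0.0041 with the first 2 of these, and IGF2BP1 in the difference between lines was 0.0018 with no count filter. Leaving out 1 library gave these log2 ranges. In Kelly they were -0.084 to 0.12 for HMGA1 at day 2, and -0.012 to 0.077 for HUWE1 and -0.16 to 0.026 for IGF2BP1 at day 5. In LAN-1 at day 2 they were -0.18 to 0.17 for IGF2BP2, -0.00015 to 0.22 for LIN28B, -0.27 to 0.17 for IGF2BP3 and -0.0042 to 0.12 for DICER1. At day 5 they were -0.092 to 0.28 for IGF2BP2, -0.12 to 0.18 for HMGA1, -0.043 to 0.23 for DICER1, -0.15 to 0.39 for ARID3B and -0.25 to 0.012 for RANBP1. For the difference between lines they were -0.23 to 0.052 for LIN28B, -0.13 to 0.062 for IGF2BP3, -0.14 to 0.12 for DICER1 and -0.13 to 0.076 for IGF2BP1. For time in DMSO they were -0.25 to 0.0039 for ARID3B in Kelly. In LAN-1 they were -0.23 to 0.17 for IGF2BP2, -0.037 to 0.016 for HMGA1, -0.33 to 0.11 for IGF2BP3, -0.026 to 0.076 for DICER1 and -0.52 to 0.019 for ARID3B. The depth, 912095 to 1666190 counts a library, limits what can be said of HMGA2, LIN28A and IGF2BP2 in Kelly.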
